A study of Mus musculus with 2 samples.

Results

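Genes for cilium transport and ciliopathies were described here, 41 of the 21938 protein-coding genes of the mouse annotation. They were taken by name, and no measured value enters the rule. The list holds 7 subunits of the BBSome, 3 chaperonin-like BBS genes, 11 genes of intraflagellar transport complex B (IFT-B), 3 of complex A (IFT-A), 3 motor genes, 3 small GTPases, 8 genes of the transition zone and connecting cilium, the lebercilin gene Lca5, and the photoreceptor-restricted genes Rp1 and Rpgrip1. The other 39 are called general cilium genes below. All 41 names matched a protein-coding gene.

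The samples formed 1 group, healthy retina of B6NCrl mouse embryos at day 14.5, male and female tissue pooled, with no genetic change or treatment named in the labels and with 2 biological replicates that share a donor label and have separate biosample labels. How many embryos were pooled is not given in the sources used here. Replicate 1 was sequenced in part on an instrument model that replicate 2 was not, so instrument and replicate cannot be told apart. DNase-seq maps where chromatin is open enough for DNase I to cut, which is mostly at promoters and other regulatory DNA. The series has no second group, so values are given for each library and no test between conditions was possible.

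A primary cilium is a thin extension of the cell surface built on a basal body, and dividing retinal progenitors and postmitotic neurons both carry one. Intraflagellar transport trains move cargo along it, with kinesin-2 motors carrying them to the tip and dynein-2 carrying them back, while the BBSome sorts membrane proteins and the transition zone at the base acts as a gate. In photoreceptors the cilium becomes the connecting cilium and outer segment, which is why mutations in these genes are a known cause of retinal degeneration, alone or with kidney, limb and brain disease. Photoreceptor outer segments form after birth in the mouse.

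Replicate 1 held 165269 distinct peaks and replicate 2 held 219308, and their depth is unknown because no read numbers are given. The deposited peak score ran from 1 to 150 in replicate 1 and from 2 to 150 in replicate 2, with medians of 29 and 48, and its meaning is not stated. Scores were therefore turned into percentile ranks among all peaks of the same library, so that a rank of 95 is the 95th percentile of that library's scores. Promoters of all 10 neural retina marker genes had a peak in both libraries, with a median rank of 95.7 in the lower library and Lhx2, Hes5 and Six6 the highest. Of the marker genes of other cell types, 10 of 15 for photoreceptors, 3 of 6 for pigment epithelium, 1 of 5 for lens, 1 of 5 for endothelium and 0 of 5 for microglia had one in both, where 68.8% of all protein-coding genes did. Among them Pmel, Best1 and Dct (pigment epithelium), Bfsp1 (lens) and Kdr (endothelium) had lower-library ranks of 96.1, 93.4, 79.1, 86.9 and 95.9. Rpe65, Tyr and Mlana (pigment epithelium), Cryaa, Cryab and Crybb2 (lens), Cdh5, Emcn, Pecam1 and Tek (endothelium), and Cx3cr1, Aif1 and C1qb (microglia) had none in either library.

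Promoters of the general cilium genes were accessible without exception in the day 14.5 retina, in both libraries, while no promoter peak was called at Rp1 of the photoreceptor-restricted pair. A promoter peak is a peak overlapping the 1 kb on either side of any annotated transcription start site (TSS) of the gene. Of the 41 genes, 40 had one in both libraries (97.6%), against 68.8% of all protein-coding genes. All 39 general cilium genes were among them. Rpgrip1 had a promoter peak in both libraries and Rp1, which encodes a microtubule-associated protein of the photoreceptor axoneme, in neither. With 2 genes on one side, the difference from the general genes cannot be tested.

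The general genes also had strong promoter peaks. The strongest promoter peak stood at rank 90 or above in both libraries for 39 of the 41 genes, against 47.7% of all protein-coding genes. The 2 exceptions were Rp1, which had no promoter peak, and Rpgrip1, with ranks of 85.4 and 81.6. Of the 15086 protein-coding genes with a promoter peak in both libraries, 10474 reached rank 90 in both. Over the 40 genes with a peak, the median promoter rank was 97.3 in replicate 1 and 98.7 in replicate 2, where all genes with a promoter peak had medians of 95.0 and 95.9. Taking the lower library for each gene, the 40 ranged from 81.6 to 99.3 and the 39 general genes from 90.8 to 99.3. Ranks of a gene differed little between libraries, by a median of 0.916 and at most 4.25 percentile points, and replicate 2 had the higher rank for 29 of the 40. Over all 15086 genes with a promoter peak in both libraries the median difference was 1.43 points.

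**Figure D1:**
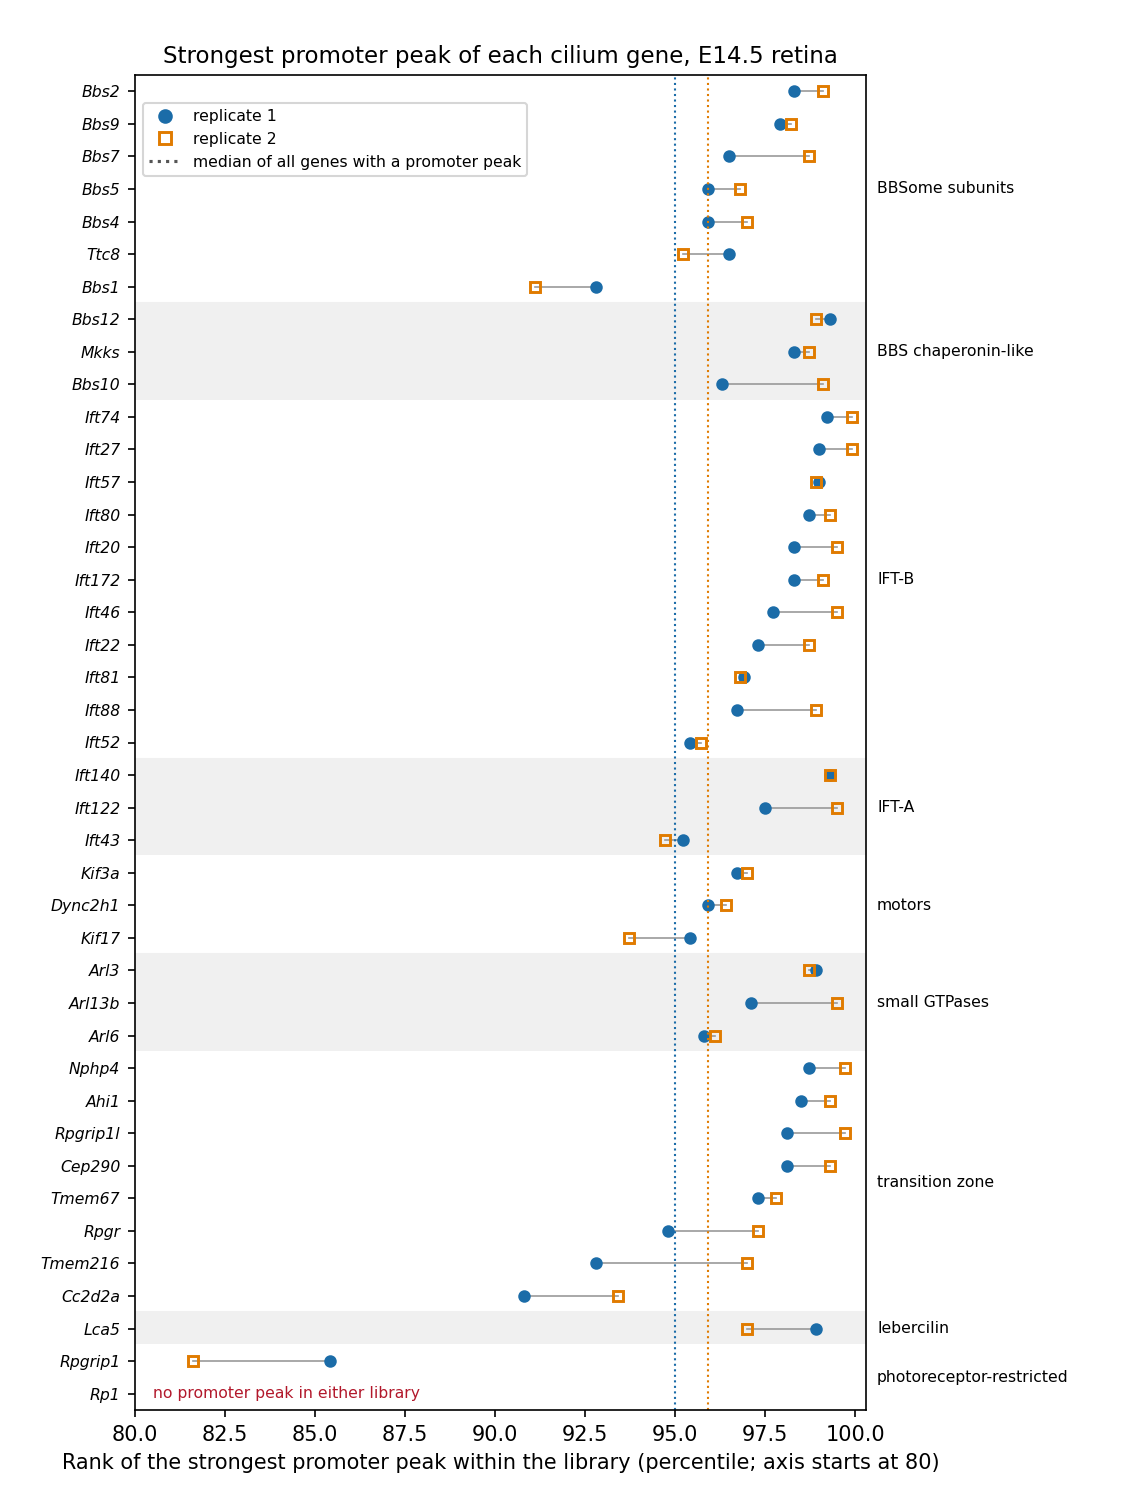
Percentile rank of the strongest promoter peak of each cilium gene within its library (x axis, which starts at 80), grouped by role, with replicate 1 as filled circles, replicate 2 as open squares and the median of all genes with a promoter peak as dotted lines. General genes stand between 90.8 and 99.9, Rpgrip1 stands at 85.4 and 81.6, and Rp1 has no promoter peak.

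Among the 7 BBSome subunits the median promoter rank was 96.5 in replicate 1 and 97.0 in replicate 2. Bbs2, a subunit of the complex core, had scores of 124 and 139 in replicates 1 and 2, ranks of 98.3 and 99.1. Bbs9 had scores of 122 and 135, Bbs7 had 115 and 137, Bbs4 had 112 and 130, and Bbs5 had 112 and 129. Ttc8, also called Bbs8, had scores of 115 and 122, ranks of 96.5 and 95.2. Bbs1, the subunit that binds the GTPase Arl6, was the lowest of the 7, with scores of 96 and 108 and ranks of 92.8 and 91.1. Its ranks lay below those of the other 6 in both libraries.

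The 3 chaperonin-like genes, which help to assemble the BBSome, had medians of 98.3 and 98.9. Bbs12 had scores of 130 and 138, ranks of 99.3 and 98.9. Mkks had scores of 124 and 137 and Bbs10 had 114 and 139, ranks of 96.3 and 99.1.

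IFT-B, the complex of the outward-moving trains, had the highest medians of the larger groups, 98.3 and 99.1, and each of its 11 genes ranked at 95.4 or above in both libraries. Ift74, which pairs with Ift81 to bind tubulin, had scores of 129 and 145, ranks of 99.2 and 99.9. Ift27, a small GTPase-like subunit that links the trains to the BBSome, had scores of 128 and 145, ranks of 99.0 and 99.9. Ift57 had scores of 128 and 138, ranks of 99.0 and 98.9. Ift81, Ift88 and Ift172 had ranks of 96.9 and 96.8, 96.7 and 98.9, and 98.3 and 99.1, and Ift52 was the lowest of the 11 at 95.4 and 95.7. Ift80 had scores of 126 and 140, ranks of 98.7 and 99.3, and Ift20, Ift22 and Ift46 lay between 97.3 and 99.5.

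The IFT-A genes serve the return journey and the entry of membrane proteins. Their lower-library ranks ran from 94.7 to 99.3, against 95.4 to 99.2 for IFT-B. Ift140 had the highest lower-library rank of all 41 genes, with scores of 130 and 140 and a rank of 99.3 in both libraries. Ift122 had ranks of 97.5 and 99.5. Ift43 had scores of 108 and 120 and ranks of 95.2 and 94.7, among the 6 lowest of the 40.

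The motor genes had medians of 95.9 and 96.4. Kif3a, a motor subunit of heterotrimeric kinesin-2, had scores of 116 and 130, and Dync2h1, the heavy chain of the dynein-2 motor, had 112 and 127. Kif17, the homodimeric kinesin-2, had scores of 109 and 116, ranks of 95.4 and 93.7. In Kif17 the strongest peak was not the same in both libraries: in replicate 1 it lay 22 bp upstream of an internal TSS, and in replicate 2 it lay 145 bp upstream of the 5′ end, 113 bp from a TSS of the overlapping gene Sh2d5. The strongest peaks of the libraries did not overlap for Dync2h1, Mkks and Tmem67 either. Among the GTPases, Arl3, which releases lipidated cargo inside the cilium, had scores of 127 and 137 and ranks of 98.9 and 98.7. Arl13b had ranks of 97.1 and 99.5, and Arl6, which recruits the BBSome to membranes, had 95.8 and 96.1.

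The transition zone and connecting cilium genes had medians of 97.7 and 98.5, and their lower-library ranks ran from 90.8 to 98.7. Cep290 and Rpgrip1l, scaffolds of the transition zone, had ranks of 98.1 and 99.3 and of 98.1 and 99.7. Ahi1, a Joubert syndrome gene, had scores of 125 and 140 and ranks of 98.5 and 99.3, and Nphp4 had 126 and 142 and ranks of 98.7 and 99.7. Tmem67 had ranks of 97.3 and 97.8. Rpgr, the X-linked retinitis pigmentosa gene, had scores of 106 and 131 and ranks of 94.8 and 97.3. At the lower end, Tmem216 had scores of 96 and 130, ranks of 92.8 and 97.0, and Cc2d2a had scores of 88 and 115, ranks of 90.8 and 93.4. Cc2d2a was thus the lowest general gene in replicate 1, while Bbs1 was the lowest in replicate 2. Lca5, a Leber congenital amaurosis gene, had scores of 127 and 130 and ranks of 98.9 and 97.0.

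Rpgrip1 encodes the protein that anchors Rpgr in the connecting cilium of photoreceptors, and its accessibility lay away from the start of its gene record (ENSMUSG00000057132, chr14:52110704-52163546, plus strand). Its strongest promoter peak, chr14:52119356-52119505 in replicate 1 and chr14:52119376-52119525 in replicate 2 (mm10), had scores of 73 and 87 and ranks of 85.4 and 81.6. These ranks were the lowest of the 40 genes in each library. The peak overlapped a coding exon and was centred 453 and 473 bp downstream of an internal TSS at chr14:52118977, 1 of 19 annotated for the gene. No peak lay within 1 kb of the 5′ end at chr14:52110704, where the nearest in both libraries was centred 2514 bp away with ranks of 47.7 and 47.5. Counting only the 5′ end of each gene record left 39 of the 41 genes with a promoter peak in both libraries, against 64.3% of all protein-coding genes, and those 39 were the general cilium genes, so neither photoreceptor-restricted gene then had one.

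Sequence before the 5′ end of Rpgrip1 is shown beside the promoter peaks of Ift140, the gene with the highest lower-library rank, and of Rpgrip1l, its broadly used paralog, because they differ in CpG dinucleotides (in capitals). All are 150 bases of GRCm38, the assembly also called mm10, read in the direction of the gene. The Rpgrip1 stretch, chr14:52110554-52110703 on the plus strand, lies outside any peak and holds 0 CpGs. The Ift140 peak, chr17:25015896-25016045 on the plus strand, holds 19, and the Rpgrip1l peak, chr8:91313296-91313445 on the minus strand, holds 14. Promoter peaks of Cep290 and Ift27, not shown, hold 11 and 6, and that of Ift27 ranked at 99.0 and 99.9.
Rpgrip1 upstream of the 5′ end: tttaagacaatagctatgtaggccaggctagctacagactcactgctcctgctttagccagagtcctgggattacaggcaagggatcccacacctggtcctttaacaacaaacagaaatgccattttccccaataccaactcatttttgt
Ift140 promoter peak: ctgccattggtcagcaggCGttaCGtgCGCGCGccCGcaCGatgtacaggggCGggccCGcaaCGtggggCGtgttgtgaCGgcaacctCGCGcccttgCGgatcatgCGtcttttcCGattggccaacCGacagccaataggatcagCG
Rpgrip1l promoter peak: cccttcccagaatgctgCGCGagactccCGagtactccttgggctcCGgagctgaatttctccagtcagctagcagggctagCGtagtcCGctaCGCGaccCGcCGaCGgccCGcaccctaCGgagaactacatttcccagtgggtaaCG

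The list as a whole was rich in CpGs. The ratio of observed to expected CpGs was taken over the 500 bp to each side of the 5′ end. Its median was 0.71 over the 41 genes and 0.55 over all protein-coding genes. It was 0.08 for Rp1, 0.20 for Rpgrip1 and highest of the 41 for Ift140, at 1.05. When all genes were cut into 10 equal classes by this ratio, 36 of the 41 fell into classes 6 to 10. Each of those 36 had promoter peaks in both, as did 97.8% of all genes in those classes, so the members' share lies close to that of genes of like CpG content. The lower classes 1 to 5 held 5 members, of which 4 showed a peak in both libraries, against 39.7% of all genes there. Rp1 stood in class 1, where 8.84% of genes had one. Rpgrip1 and Cc2d2a stood in class 3, where 32.6% had one, Nphp4 in class 4 with 54.3% and Ttc8 in class 5 with 83.7%. The class was set at the 5′ end but a peak counted at any TSS, for members and for all genes. Rpgrip1 had no promoter peak at its 5′ end, and the strongest peaks of Cc2d2a and Nphp4 lay outside the 500 bp CpG window. General genes were thus mostly CpG-rich and the photoreceptor-restricted pair CpG-poor, and CpG content and restriction to photoreceptors cannot be told apart with 2 genes.

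**Figure D2:**
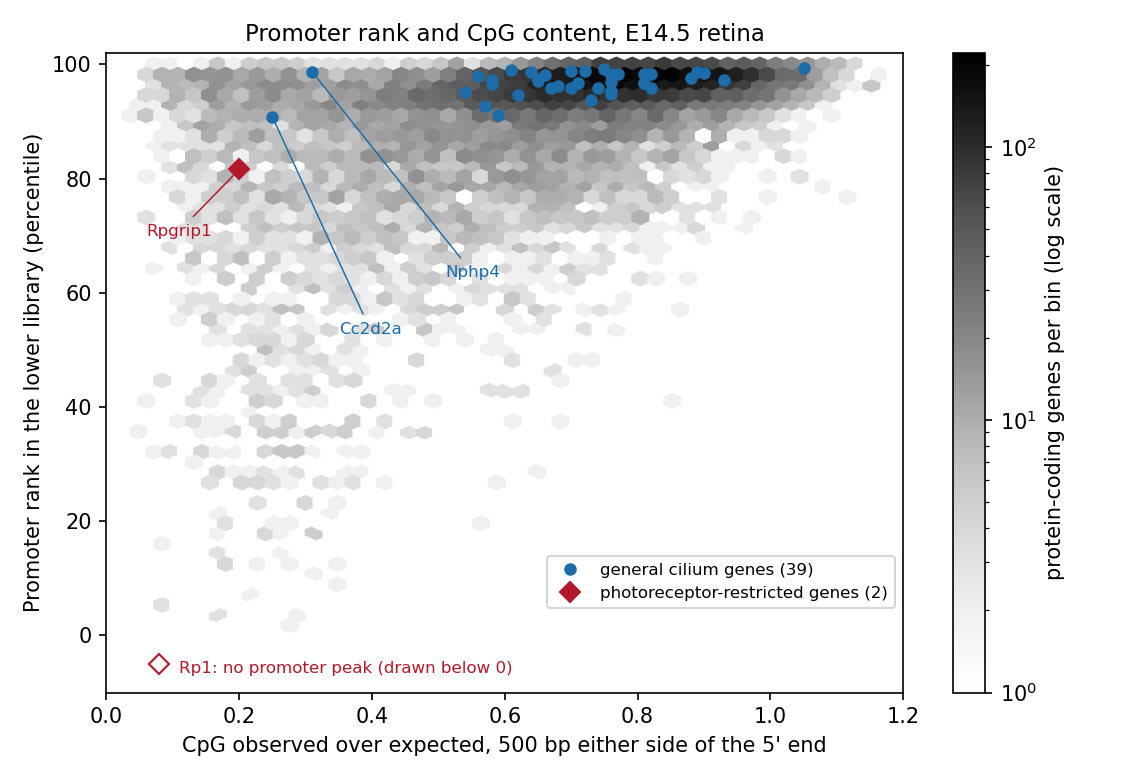
Promoter rank in the lower of the 2 libraries (y axis, percentile) against CpG observed over expected (x axis, ratio) for all protein-coding genes with a promoter peak in both libraries (grey bins, log colour scale), general cilium genes (blue circles) and photoreceptor-restricted genes (red diamonds, Rp1 drawn below 0 because it has no promoter peak). General genes gather at the CpG-rich, high-rank corner, with Nphp4 at 0.31 and Cc2d2a at 0.25 the lowest of them in CpG. CpG is taken at the 5′ end and the rank at any TSS. The ranked peaks of Nphp4 and Cc2d2a lie outside the 500 bp CpG window, so their points do not show the rank of CpG-poor sequence.

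Rank within CpG-rich genes was closer to the rest as well. In classes 6 to 10 the median lower-library rank of all genes with a peak in both libraries was 96.1, against 94.8 over all classes and 97.2 over the 40 members. Here and in the comparisons below the 40 include 4 members of classes 1 to 5. Values for the 36 members of classes 6 to 10 alone were not taken. The hotspot (a broader region of cutting) around each member's strongest promoter peak had a median width of 1106 and 1325 bp. Over all genes with a peak in both libraries it was 1116 and 1424 bp, and over those in classes 6 to 10 it was 1231 and 1553 bp. Those hotspots reached the ceiling of the deposited significance value, a −log10 false discovery rate of 100, for 40 of 40 members in both libraries, against 91.2% and 95.6% of all genes and 96.5% and 98.2% of those in classes 6 to 10. The strongest peak was centred within 100 bp of one of the gene's TSSs for 30 and 31 of the 40 members, for 67.6% and 66.3% of all genes and for 71.6% and 69.8% of those in classes 6 to 10.

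Many cilium genes share their promoter with a neighbour, which bears on what a promoter peak says of them. A coding gene starting on the opposite strand within 1 kb stood beside 13 of the 40 members (32.5%), against 17.3% of all genes with a peak in both libraries and 20.6% of those in CpG classes 6 to 10. These were Mkks, Bbs12, Ift20, Ift46, Ift80, Ift122, Ift140, Dync2h1, Arl3, Cep290, Rpgrip1l, Nphp4 and Tmem67. The median lower-library rank was 98.3 with such a neighbour and 96.5 without, and over all genes 97.1 and 94.0. Which of the paired genes a peak serves was not tested.

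A setting added after the data were seen gave each peak only to the gene, coding or noncoding, whose TSS was nearest. In it 35 of the 41 genes had a promoter peak in both libraries, against 64.5% of all protein-coding genes. Bbs12, Mkks, Ift20, Ift27 and Kif3a no longer did, although their shared peaks ranked between 96.7 and 99.9. The strongest peaks of Bbs12, Ift27 and Kif3a lay nearest to TSSs of the noncoding genes Gm43439, Gm49694 and A430108G06Rik. Cep290 went from 98.1 and 99.3 to 5.67 and 7.45, because its strong peak lay nearer to a TSS of another gene. Arl3 stood at 98.9 and 65.5, and Rpgrip1l at 98.1 and 76.6. For Nphp4, whose strongest peak was centred 66 and 86 bp from a TSS of Kcnab2, the peak nearest to its own TSS was chr4:152478096-152478245, with scores of 86 and 116 and ranks of 90.2 and 93.7. The Cc2d2a peak named above lay at an internal TSS, and at its 5′ end the ranks were 83.6 and 86.0.

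The X-box, the site that RFX factors bind in promoters of cilium genes of many animals, was found in few of these peaks. It was searched as the arms GTTNC and GNAAC with 3 or 4 bases between them, a pattern that reads the same on both strands, in every promoter peak of 150 bp. Ahi1, Arl6 and Kif17 held a match in both libraries, 3 of 40 (7.5%), against 2.15% of all genes with a promoter peak in both. Kif3a held one in replicate 2 only. The 30 bases around each match are shown in the direction of the gene, with the match in capitals and the coordinates of the 30 bases, next to those of Mks1 and Dync2li1, other primary cilium genes that also matched in both libraries. The Ahi1 match (shown with its flanks, chr10:20952560-20952589, plus strand) lay 27 bp downstream of a TSS, in the strongest promoter peak of both libraries. The Arl6 match (within chr16:59639152-59639181, minus strand) lay 1 bp from a TSS, in a peak of rank 95.4 in both libraries that was not the strongest. The Kif17 match (within chr4:138262170-138262199, plus strand) lay 48 bp upstream of the internal TSS, in peaks of ranks 95.4 and 91.1. The bases shown for Kif3a are chr11:53567713-53567742, those for Mks1 chr11:87853183-87853212 and those for Dync2li1 chr17:84626445-84626474, all on the plus strand of GRCm38.
Ahi1 X-box match: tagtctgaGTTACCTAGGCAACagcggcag
Arl6 X-box match: aagctcccGTTGCCAAGGGAACgccgcgcg
Kif17 X-box match: tcacggagGTTGCCCAGCAACggcgaacgc
Kif3a X-box match: cccgcccaGTTGCCCCGGAACgcgttgcat
Mks1 X-box match: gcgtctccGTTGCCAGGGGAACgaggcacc
Dync2li1 X-box match: gtgacgtcGTTGCCATGGCAACcgaggagc

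The Kif17 and Kif3a matches have 3 bases between the arms and the others have 4. Counts of matches rested on the pattern. Widening each peak by 75 bp on either side gave 5 members, adding Bbs7 and Ift57, against 3.56% of all genes. Allowing 1 mismatch over the 8 fixed bases gave 15 of 40 members, against 15.1% of all genes. In the strongest promoter peak alone, 1 of 40 members (Ahi1) matched in both libraries, against 1.23%. Among other primary cilium genes 4 of 49 matched in both libraries, namely B9d2, Dync2li1, Mks1 and Tctn3, and among markers of multiciliated cells 2 of the 15 with a peak did, Dnaic2 and Hydin. A letter match is not evidence of binding, and promoters without one may hold variants of the site beyond those searched.

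Other motifs, chosen after the data were seen, were searched on both strands in the strongest promoter peak and counted where both libraries held them. The ETS motif CCGGAAG was in 7 of 40 members (17.5%) and 11.4% of all genes, in Bbs2, Bbs4, Ift20, Ift88, Dync2h1, Rpgr and Tmem216. The cyclic AMP response element TGACGTCA was in 3 (7.5%) and 2.61%, in Ift57, Ift81 and Ahi1. An X-box half-site, GTTGCCA, was in 3 (7.5%) and 2.31%, in Bbs1, Ift81 and Ift88, none of which held a full match. The GC box GGGCGG was in 17 (42.5%) and in 7549 of all 15086 genes. The core TAATCC, bound by the photoreceptor factors CRX and OTX2, was in 0 of 40 members and 1.4% of all genes.

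Peaks more than 1 kb from any TSS were given to the nearest protein-coding TSS, whatever gene they serve. At least 1 such distal peak stood nearest to 32 of the 41 genes in both libraries, against 65.1% of all protein-coding genes. Bbs12, Mkks, Ift20, Ift46 and Ift52 had none in either library. In total 271 distal peaks in replicate 1 and 398 in replicate 2 were nearest to a member, a median of 2 and 4 per gene against 2 and 2 over all genes. The members' genomic territory (the length nearest to each gene) was longer too, with a median of 63.8 kb against 45.0 kb.

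Distal peaks were spread unevenly over the members, whose territories ran from 0.132 kb (Bbs12) to 571 kb (Dync2h1). Whether distal peaks are as uneven over all genes was not examined. Nphp4 had the most, 67 and 82, which is 24.7% and 20.6% of the members' total, within a territory of 526 kb. Its 12.7 and 15.6 distal peaks per 100 kb compare with genome averages of 4.39 and 6.10. Of those peaks 48 and 64 were intergenic, and Kcnab2 was the gene with the next nearest TSS for 66 and 81 of them. Over all 41 members the density was 5.31 and 7.80 per 100 kb, and without Nphp4 it was 4.46 and 6.91.

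Ahi1 followed with 28 and 39 distal peaks in 269 kb (10.4 and 14.5 per 100 kb). Its place rested on peaks near TSSs: beyond 10 kb from any TSS its mean over the libraries was 9.5 instead of 33.5, below Lca5 and below the 22.0 of Bbs9, 16.0 of Ttc8, 15.5 of Ift57 and 12.0 of Bbs10, while Nphp4 kept the most with 63.0. Bbs9 had 18 and 35, of which 16 and 34 lay in introns. Ttc8 had 18 and 33, Lca5 had 18 and 22, and Ift57 had 16 and 21 at 4.24 and 5.56 per 100 kb, below the genome averages. Dync2h1, with the longest territory of the 41 at 571 kb, had only 6 and 8. Arl3 differed most between libraries in relative terms among genes with over 10 in either, with 4 in replicate 1 and 17 in replicate 2.

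**Figure D3:**
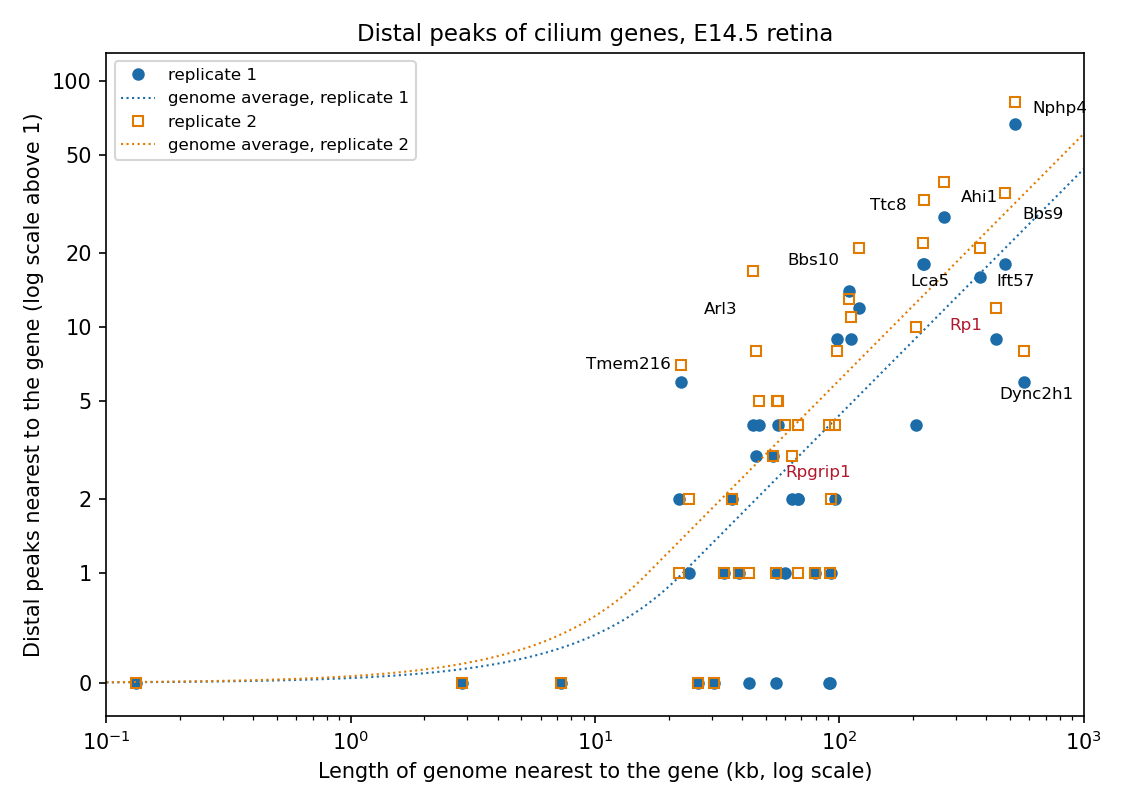
Number of distal peaks nearest to each cilium gene (y axis, log scale above 1) against the length of genome nearest to it (x axis, kb, log scale), with replicate 1 as filled circles, replicate 2 as open squares and dotted curves for the genome average of each library. Nphp4, Ahi1 and Ttc8 are among those above the curves in both libraries, and Rp1 (9 and 12 peaks) and Dync2h1 (6 and 8) lie below them.

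Both photoreceptor-restricted genes had distal peaks in both libraries, as did 65.1% of all protein-coding genes. Rp1 (ENSMUSG00000025900, chr1:3999557-4409241, minus strand) had 9 and 12 in a territory of 436 kb, or 2.07 and 2.76 per 100 kb against genome averages of 4.39 and 6.10. The peak closest to its 5′ end was centred 7709 bp away in replicate 1 and 3349 bp in replicate 2. Its strongest shared distal peak, chr1:4332576-4332725, lay in an intron 27.7 kb from an internal TSS, with scores of 60 and 84 and ranks of 79.1 and 79.9. Rpgrip1 had 3 in each library, 5.62 per 100 kb, and the strongest, chr14:52124036-52124185, lay in an intron with scores of 66 and 86 and ranks of 82.2 and 81.0. That is close to the ranks of its promoter peak. These peaks are shown with the shared distal peak of highest lower-library rank among all members, near Ahi1 (chr10:21082576-21082725), all read on the plus strand of GRCm38. Capitals mark a homeodomain core TAATTA in Rp1, a core of the insulator protein CTCF in Rpgrip1 (CC, any 3 bases, AG, any 2 bases, GGC) and the CRX and OTX core TAATCC, read on the other strand, in Ahi1.
Rp1 strongest shared distal peak: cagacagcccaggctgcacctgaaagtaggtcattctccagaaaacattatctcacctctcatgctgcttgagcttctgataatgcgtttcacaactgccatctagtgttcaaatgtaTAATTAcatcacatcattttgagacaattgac
Rpgrip1 strongest shared distal peak: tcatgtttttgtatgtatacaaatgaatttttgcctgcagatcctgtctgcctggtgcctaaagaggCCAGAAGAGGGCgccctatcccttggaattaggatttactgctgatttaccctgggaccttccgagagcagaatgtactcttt
Ahi1 strongest shared distal peak: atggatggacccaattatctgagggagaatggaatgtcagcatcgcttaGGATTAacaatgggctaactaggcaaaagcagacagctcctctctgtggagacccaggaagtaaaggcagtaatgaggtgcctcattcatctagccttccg

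These letters are common in distal peaks. Of the 197 distal peaks of members in replicate 1 that replicate 2 shared, TAATTA was in 6.60% and TAATCC in 5.08%, against 6.40% and 5.87% of all 85078 shared distal peaks, and the CTCF core was in 20.3% against 17.0%. All were searched on both strands and chosen after the data were seen.

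Distal peaks of members were shared between libraries at about the rate of all distal peaks. In replicate 1, 197 of 271 were overlapped by a peak of replicate 2 (72.7%, against 71.2% of all), and in replicate 2, 201 of 398 were overlapped by a peak of replicate 1 (50.5%, against 49.9%). Shared ones ranked higher, with medians of 57.9 and 67.1 against 20.2 and 31.7 for those in 1 library alone. Median ranks over all the members' distal peaks were 47.7 and 46.8, far below those of their promoters, and 43.2 and 44.4 over all distal peaks. Only 8 and 18 reached rank 90, which is 2.95% and 4.52% against 3.33% and 4.55%.

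Ahi1, Ttc8 and Ift81 held the strongest distal peaks shared by the libraries. The Ahi1 peak shown above was intergenic, 12.8 kb from a TSS of Ahi1 and 64.1 kb from Myb, with scores of 105 and 135 and ranks of 94.6 and 98.2. Other Ahi1 peaks stood 32.4 kb from a TSS between the genes (90.5 and 96.1) and 1.76 kb away in an intron (90.8 and 92.5). A pair of Ttc8 peaks lay 110 and 123 kb from its TSSs in intergenic sequence, with ranks of 95.6 and 93.7 and of 91.8 and 94.2. The Ift81 peak, 12.9 kb upstream and 16.5 kb from P2rx7, had ranks of 90.8 and 93.7. The gene each peak acts on was not tested.

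Comparison lists set these values in context. Of 50 other primary cilium genes 49 matched the annotation, and all 49 had a promoter peak in both libraries, at a median lower-library rank of 96.5 against 97.3 for the 39 general genes. Bbip1, a BBSome subunit, Rab8a, a GTPase of ciliary membrane traffic, and Wdr34, a dynein-2 intermediate chain, were the highest at 99.9, 99.6 and 99.3, and the lowest gene stood at 84.5. Markers of multiciliated cells, which beat motile cilia and are not a retinal cell type, had a promoter peak in both libraries at 15 of 16 genes with a median of 94.2. Dnaic1, Ccno and Rsph1 led them at 99.3, 98.2 and 97.3, and Dnah5 had none. A promoter peak in both libraries stood at 68.8% of all protein-coding genes and at 97.8% of those in CpG classes 6 to 10. Median CpG ratios were 0.67 for other primary cilium genes and 0.58 for multiciliated cell markers.

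Photoreceptor markers had promoter peaks in both libraries at 10 of 15 genes (66.7%), close to the 68.8% of all protein-coding genes. Their median lower-library rank was 56.8, with a range from 6.94 to 95.0, against a median of 94.8 over all genes with a peak in both. Gnat1, the rod transducin gene, Otx2, an early photoreceptor factor, and Rom1, an outer segment disc protein, were the highest at 95.0, 91.1 and 90.2, while Impg1, Pde6b and Rcvrn had none in either library. Rpgrip1 at 81.6 thus lay within their range, above their median and below all 39 general genes, and Rp1 joined the genes without a promoter peak. Over all genes of CpG class 3, that of Rpgrip1, with a peak in both libraries, the median lower-library rank was 80.1. The median CpG ratio of the photoreceptor markers was 0.31. In bulk tissue, fewer cells with an open promoter and less cutting per cell cannot be told apart.

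**Figure D4:**
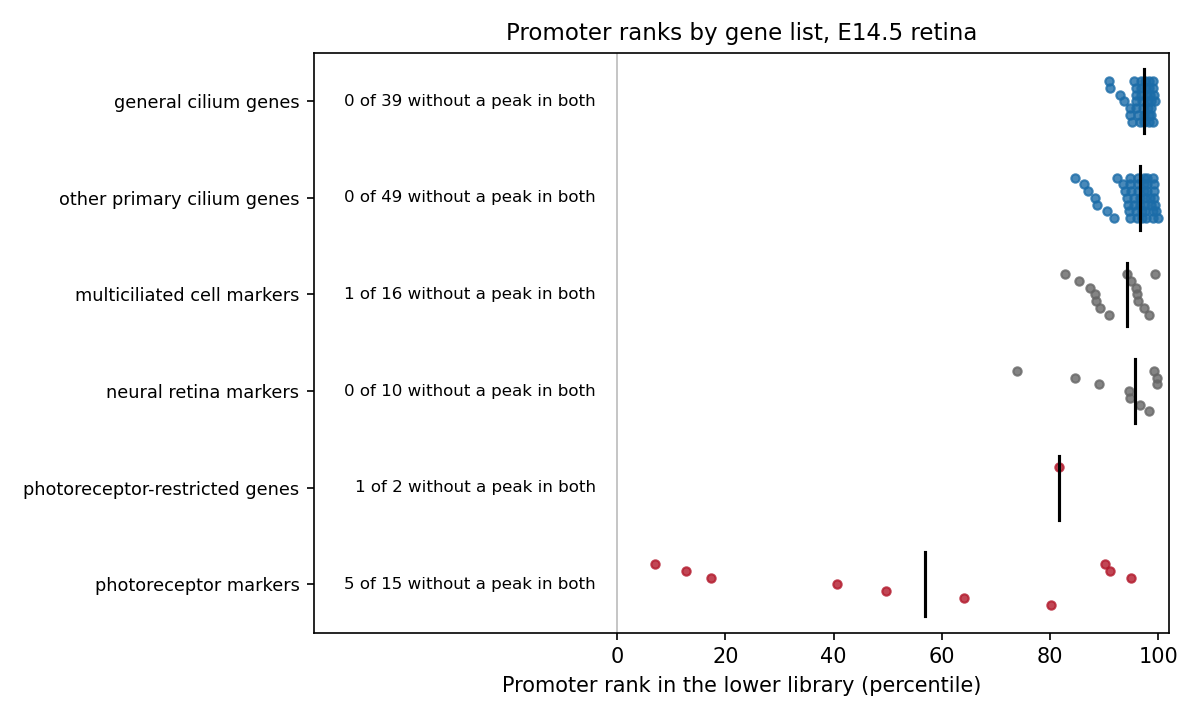
Promoter rank in the lower of the 2 libraries (x axis, percentile) for genes with a promoter peak in both libraries, by list (y axis), with 1 point per gene and a black bar at the list's median. The number of genes without a peak in both libraries stands at the left. General and other primary cilium genes gather at 84.5 and above, photoreceptor markers spread from 6.94 to 95.0, and Rpgrip1 is the only point of the photoreceptor-restricted pair.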

How the data were processed

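DNase-seq peaks and hotspots of 2 libraries were used as the authors deposited them, called in each library on its own and on mm10 per the labels. The sources used here name no aligner, caller, version or filter. The deposited peak score (unit not stated) was ranked as a percentile within each library, since the libraries' depth is unknown and their scores are not comparable. The −log10 false discovery rate of hotspots is the deposited value, with a ceiling of 100. Scores were written in decimal form for 12.1% and 7.8% of peaks. Duplicate lines were removed.

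Genes and TSSs came from GENCODE M21 on GRCm38, the assembly of mm10, on assembled nuclear chromosomes. A promoter peak overlapped the 1 kb on either side of any TSS, so a peak can count for several genes, and other peaks went to the nearest protein-coding TSS. Peaks were shared at an overlap of at least 1 bp. Analyses used Python 3.11.15, pandas 2.3.3, NumPy 2.4.6 and pysam 0.24.0. The steps that assign peaks and find X-box matches were checked on simulated data. With 1 group there is no test, and shares of all protein-coding genes stand in as background.

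Members and lists were chosen with earlier results of these data known. Genes named were Rp1 and Rpgrip1, members lacking a promoter peak, the 6 highest and 6 lowest promoter ranks, the 6 with most distal peaks, those with an X-box match, the 6 highest shared distal peaks and, in other lists, up to 3 highest and up to 3 without a peak. Other members are given by role, and further genes named in the text (Arl3, Dync2h1 and Cep290 among them) were picked after their values were seen.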

Additional observations from a re-analysis of the deposited data

How the results depend on the processing

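The count of members with a promoter peak in both libraries was 35 to 40 over all settings, and that of general cilium genes 34 to 39. Counting only 5′ ends gave 0 photoreceptor-restricted genes with a promoter peak instead of 1, and adding Rpgr, Lca5 and Kif17 to that group gave 4 of 5. The mean over libraries of the median promoter rank was 98.0 ± 0.968 (SD, n = 2), and 96.8 with peaks given only to the nearest TSS (added after the data were seen). The mean distal total was 334.5 ± 89.8, and it was 208.5 beyond 10 kb from any TSS, 153.0 with only peaks at or above the median score and 260.0 without Nphp4 (added after the data were seen). X-box matches went from 3 members to 5 with wider peaks and 15 with 1 mismatch. Leaving out each library in turn gave 40 to 40 members with a promoter peak, 1 to 1 photoreceptor-restricted and 39 to 39 general genes, median ranks of 97.3 to 98.7, 32 to 36 members with a distal peak, 271 to 398 distal peaks and 3 to 4 X-box members. Of single genes, the promoter rank moved by more than the spread of the libraries for 4 of 39 at the 5′ end, 1 of 40 with a 500 bp window and 7 of 35 with the nearest TSS, and the number of distal peaks moved for 23 of 41 beyond 10 kb and 27 of 41 with only peaks at or above the median score. No paired analysis was possible because there is only 1 group. Depth is unknown, so a missing peak is not shown to be closed chromatin.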
